A study of Mus musculus with 13 samples.

Results

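Hox genes encode transcription factors with a homeodomain, and 38 of them were described here among the 39171 genes of the deposited expression table. They were taken by name, as the protein-coding genes of clusters A, B, C and D, and not by any measured value. Cluster A on chromosome 6 gave 11 members, cluster B on chromosome 11 gave 10, cluster C on chromosome 15 gave 9 and cluster D on chromosome 2 gave 8. Hoxd4 was not analysed here.

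Hox genes lie in the order of their paralog groups, numbered 1 to 13, and a paralog group holds the copies of 1 ancestral gene in the different clusters. Low-numbered genes reach as far forward as the hindbrain, and higher-numbered genes begin successively nearer the tail, so that the combination in a cell records its level along the body axis. In the spinal cord this code is best known from motor neurons, where it sets columns and pools. Microglia do not come from the neural tube but from yolk sac precursors that enter it.

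The libraries were made from spinal cord of C57BL/6 mice, from astrocytes sorted by green fluorescent protein driven by Aldh1l1 and from microglia sorted by the surface protein CD11b. The mice were Il33 knockouts (KO, from the Pichery et al. line, without the cytokine interleukin-33) or control littermates (WT). There were 4 KO astrocyte libraries, 3 WT astrocyte libraries, 3 KO microglia libraries and 3 WT microglia libraries, which the submitters call biological replicates. All were from postnatal day 12 (P12), except KO astrocytes 2 and WT astrocytes 3 from postnatal day 9 (P9). Sorted CD11b+ cells can include other myeloid cells, and no source used here says which segments of the cord were dissected.

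Il33 was at 2.28, 2.05, 0.424 and 0.733 FPKM in KO astrocytes, against 96.3, 113 and 108 FPKM in WT astrocytes, and at no more than 1.26 FPKM in any microglia library. FPKM scale fragments by transcript length and by the number mapped, so levels are per length and can be compared between genes. The summed astrocyte markers (8 genes, such as Aldh1l1 and Gja1) reached 4685 to 9002 FPKM in astrocyte libraries and 57.3 to 90.9 FPKM in microglia libraries. The summed microglia markers (9 genes, such as P2ry12) reached 8.46 to 60 FPKM in astrocyte libraries and 8324 to 8861 FPKM in microglia libraries. Oligodendrocyte markers (6 genes, such as Mog) were present in both sorts, with sums of 1148 to 2014 FPKM in astrocyte libraries and 201 to 739.9 FPKM in microglia libraries. The depth relative to KO microglia 2, read from the steps of the lowest values, was 33.9% to 63.1% in astrocyte libraries and 72.8% to 100% in microglia libraries, and the absolute depth is unknown. In these bulk samples, fewer expressing cells and less RNA per cell cannot be told apart.

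The RefSeq table of promoters (GRCm38.p6) held 23 start sites for 21 of the 38 genes. Of the windows of 250 bases before the start, 13 held no annotated exon. From these 13, the windows of the 2 genes with the highest and of the 2 genes with the lowest astrocyte level are shown, 5′ to 3′ on the plus strand, to set Hox genes that were high in astrocytes beside Hox genes that were near 0. Capitals mark CpG dinucleotides. Hoxd8 lies at chr2:74704365-74704614, Hoxb8 at chr11:96281655-96281904, Hoxd13 at chr2:74667975-74668224 and Hoxd12 at chr2:74674763-74675012.
Hoxd8: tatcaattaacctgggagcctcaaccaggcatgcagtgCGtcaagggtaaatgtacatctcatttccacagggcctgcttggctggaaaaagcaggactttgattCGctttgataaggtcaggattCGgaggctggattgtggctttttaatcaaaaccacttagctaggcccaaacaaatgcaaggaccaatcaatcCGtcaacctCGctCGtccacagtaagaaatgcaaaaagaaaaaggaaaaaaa
Hoxb8: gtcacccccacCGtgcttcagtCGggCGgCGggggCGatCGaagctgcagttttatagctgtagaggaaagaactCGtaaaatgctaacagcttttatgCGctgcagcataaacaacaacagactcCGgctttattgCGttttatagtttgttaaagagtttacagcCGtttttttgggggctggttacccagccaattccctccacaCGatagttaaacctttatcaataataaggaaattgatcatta
Hoxd13: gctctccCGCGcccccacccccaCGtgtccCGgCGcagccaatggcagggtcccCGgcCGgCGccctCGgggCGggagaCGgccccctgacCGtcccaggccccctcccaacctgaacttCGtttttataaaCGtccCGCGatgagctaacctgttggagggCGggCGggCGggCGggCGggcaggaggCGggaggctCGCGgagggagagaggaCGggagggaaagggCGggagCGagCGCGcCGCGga
Hoxd12: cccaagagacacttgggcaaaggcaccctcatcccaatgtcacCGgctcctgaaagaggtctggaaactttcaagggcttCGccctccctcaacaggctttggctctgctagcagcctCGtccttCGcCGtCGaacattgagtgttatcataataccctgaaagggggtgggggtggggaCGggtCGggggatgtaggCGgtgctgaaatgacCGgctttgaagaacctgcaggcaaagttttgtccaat

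The Hoxd8 window holds 6 CpG and the Hoxb8 window 12, against 31 in the Hoxd13 window and 10 in the Hoxd12 window. Over the 23 Hox windows the median was 13 CpG (2 to 35), against 6 (0 to 56) over all 32817 promoters of that length. Motifs were searched on both strands, and a window counted once however its matches overlapped. TGATTNAT, a site that Hox and Pbx proteins can bind together, was in 2 of the 23 Hox windows (8.70%, Hoxa2 and Hoxd11) and 2.83% of all windows. TAATTA, the core of many homeodomain sites, was in 2 of the 23 Hox windows (8.70%, both of Hoxd11) and 4.85% of all windows. Counts this small do not show an excess over all windows. TATAAA was in 13.0% of the Hox windows and 12.4% of all windows, with 2 matches each in front of Hoxb8 and Hoxd13. None of the 4 windows printed above holds TGATTNAT or TAATTA. A match describes these letters and shows no binding.

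Astrocytes of the cord carried a high and broad Hox signal, and microglia a low one. The FPKM of the 38 genes summed to 356, 434, 344 and 317 in KO astrocytes and 329, 398 and 432 in WT astrocytes, against 13.5, 8.17 and 10.7 in KO microglia and 12.8, 13.8 and 13.8 in WT microglia. The lowest astrocyte library was thus far above the highest microglia library, and the microglia mean was 3.25% of the astrocyte mean. The FPKM of all genes summed to less in microglia libraries (1.19e+06 to 1.43e+06) than in astrocyte libraries (1.68e+06 to 3.84e+06). As a share of it, Hox genes gave 6.27e-04% to 0.00116% in microglia libraries and 0.0104% to 0.0258% in astrocyte libraries. A mean of at least 1 FPKM was reached by 27 of the 38 genes in astrocytes and by 2 in microglia, and a mean of at least 10 FPKM by 8 genes in astrocytes. The mean was higher in astrocytes for 35 of the 38, where it was higher for 35.5% of all genes above 0 in any library.

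All 7 astrocyte libraries lay above all 6 microglia libraries for 21 of the 38 genes, against 11.5% of the genes above 0 in any library. In the fit across all genes (limma on log2(FPKM + 1), genes with a mean of at least 1 FPKM), 26 Hox genes were tested, and 22 were higher in KO astrocytes than in KO microglia at an adjusted p under 0.05, where 25.1% of all genes tested were higher. In WT, 21 of the 26 were higher, where 24.5% of all genes tested were. None was lower in astrocytes, against 31.9% of all genes tested in KO and 29.1% in WT. The median log2 difference of the 26 was 2.35 in KO and 2.29 in WT, against -0.24 and -0.21 over all genes tested. Most of these genes entered the fit through their astrocyte level, since microglia rarely reached 1 FPKM, so the counts describe the tested genes only. The KO and WT pairs share no library, but both come from 1 fit with a common spread and age term. They are therefore not independent repeats.

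The 12 genes under that filter were compared library by library, with genotypes pooled and an exact two-sided permutation test (7 astrocyte against 6 microglia libraries, smallest possible p = 0.00117). The unadjusted p was under 0.05 for 6 of them, and all 6 were higher in astrocytes, where 4.96% of all genes under the filter and above 0 in any library were higher at such a p. Among them were Hoxd10 (exact p = 0.00117), Hoxd1 (0.00350), Hoxc13 (0.0152), Hoxc11 (0.0326) and Hoxa11 (0.0490). It was at least 0.05 for Hoxa13, Hoxb1, Hoxb3, Hoxb13, Hoxd12 and Hoxd13. Hoxd10, a gene of lumbar motor neurons, was at 0.248 to 1.64 FPKM in astrocyte libraries and 0 to 0.179 FPKM in microglia libraries, without overlap.

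Among the clusters, C gave the largest part of the astrocyte signal. Its sum was 152, 192, 154 and 142 FPKM in KO astrocytes and 127, 153 and 198 FPKM in WT astrocytes. Cluster A followed with 92.4, 97.1, 83.8 and 82.8 FPKM in KO astrocytes and 95.9, 119 and 116 FPKM in WT astrocytes. Cluster B reached 51.5, 100.2, 62.4 and 59.5 FPKM in KO astrocytes and 55.5, 85.1 and 79.7 FPKM in WT astrocytes, and cluster D 60.6, 45.2, 44.2 and 32.7 FPKM in KO astrocytes and 50.8, 40.0 and 38.9 FPKM in WT astrocytes. The order C, A, B, D of the means held in 5 of the 7 libraries, and the ranges of A and B overlapped, as did those of B and D. As a share of the Hox sum in astrocytes, C gave 42.8%, A 26.3%, B 18.9% and D 11.97%. In KO microglia the cluster sums averaged 2.52 ± 0.274 FPKM for A, 2.93 ± 1.34 for B, 2.37 ± 0.583 for C and 2.98 ± 1.96 for D (SD, n = 3), and their ranges overlapped. In WT microglia they averaged 5.12 ± 0.698 FPKM for A, 4.17 ± 1.04 for B, 2.55 ± 0.328 for C and 1.62 ± 0.494 for D (SD, n = 3). Cluster A did not overlap between the genotypes in microglia, at 2.28 to 2.82 FPKM in KO and 4.42 to 5.81 FPKM in WT, at levels near the detection floor. Its highest gene differed between the WT libraries, with Hoxa4 at 1.66 FPKM in WT microglia 1, Hoxa7 at 3.75 FPKM in WT microglia 2 and Hoxa3 at 2.67 FPKM in WT microglia 3. The share of all genes without such overlap in microglia was not computed, so no genotype effect is read from this sum. The microglia level was 1.54% of the astrocyte level in cluster C and 3.89% to 5.15% in the other clusters.

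The paralog groups showed a peak in the middle of the series. Groups 6 to 8, which pattern the brachial and thoracic cord, gave 72.1% of the astrocyte Hox sum (69.6% to 74.5% by library), against 38.5% in microglia (22.2% to 62.9% by library). Groups 1 to 5 gave 14.7% in astrocytes and 39.9% in microglia. Groups 9 and 10, which pattern the lower thoracic and lumbar cord, gave 9.55% in astrocytes, and groups 11 to 13, which mark the tail end, gave 3.56%. Group 8 alone summed to 154, 167, 139 and 113 FPKM in KO astrocytes and 122, 125 and 169.8 FPKM in WT astrocytes. Group 6 followed with 71.5 ± 21.6 FPKM and group 7 with 56.2 ± 11.1 FPKM (SD, n = 7). From group 8 to group 9 the mean dropped to 19.4 ± 5.26 FPKM, and the ranges of these groups did not overlap. Group 5 was at 20.3 ± 6.02 FPKM.

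**Figure D1:**
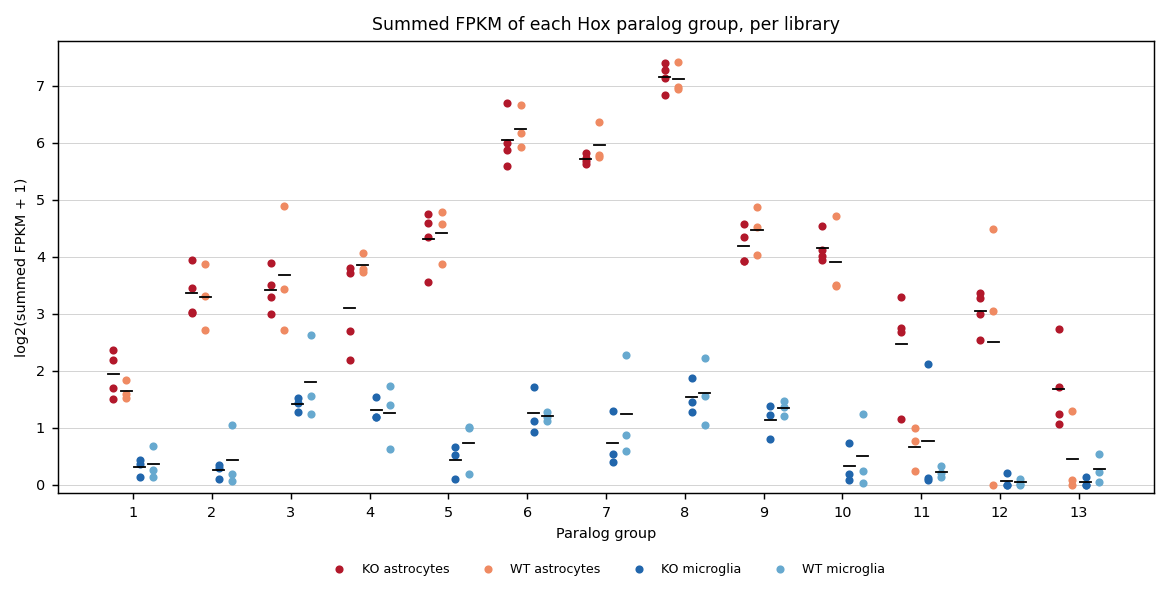
Summed FPKM of each paralog group, as log2(sum + 1), with 1 point per library and a bar at the mean of the plotted values, for KO and WT astrocytes (red and orange) and KO and WT microglia (dark and light blue). Astrocyte sums are highest at groups 6, 7 and 8. In groups 11, 12 and 13 some astrocyte libraries come down to the level of microglia. In group 12 this is WT astrocytes 3 alone, at 0.

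In the order of single genes, Hoxc8 stood first and apart. It was the highest Hox gene in all 7 astrocyte libraries, and its lowest value exceeded the highest of the next gene, Hoxa7. Hoxa7, Hoxc6, Hoxd8 and Hoxb6 followed. Hoxc8 and Hoxa7 were the only neighbours in the order of the 38 whose ranges did not overlap, and Hoxd12, the last, was at 0 in every astrocyte library. In microglia the highest Hox gene was a different one in each of the 6 libraries. Across the 38 genes, the Hox profiles of astrocyte libraries correlated at Spearman's rho of 0.76 to 0.90 over the 21 pairs of libraries, and those of microglia at 0.28 to 0.74 over 15 pairs. Such pairs share gene length and annotation, and the microglia values are near the detection floor.

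Hoxc8, which patterns brachial motor neurons, was at 88.8, 104, 90.1 and 72.3 FPKM in KO astrocytes and 64.3, 70.3 and 120.4 FPKM in WT astrocytes, against 1.12, 0.423 and 0.478 FPKM in KO microglia and 0.110, 1.22 and 0.684 FPKM in WT microglia. No microglia library came near the lowest astrocyte library. The log2 difference between cell types was 5.62 ± 0.27 in KO and 5.50 ± 0.29 in WT (SE; limma adjusted p = 3.90e-08 and 1.01e-07). Hoxc6, which marks limb-level motor neurons, was at 22.7, 42.9, 35.0 and 40.9 FPKM in KO astrocytes and 29.5, 31.1 and 49.2 FPKM in WT astrocytes, and at 0.113 to 0.609 FPKM in microglia. The groups of cell type did not overlap, and the log2 difference was 4.53 ± 0.24 in KO and 4.59 ± 0.26 in WT (limma adjusted p = 9.59e-08 and 1.99e-07). Hoxc10, a lumbar gene, was at 13.4, 18.9, 9.89 and 11.6 FPKM in KO astrocytes and 6.62, 19.4 and 7.91 FPKM in WT astrocytes, and at 0 to 0.596 FPKM in microglia. It was the highest gene beyond group 8, with log2 differences of 3.49 ± 0.39 in KO and 3.22 ± 0.42 in WT (limma adjusted p = 2.36e-05 and 9.05e-05). Its exons share 166 bases with those of Hoxc5 in the annotation, so these neighbours are not fully separate. The other 6 genes of cluster C had astrocyte means from 0.923 FPKM (Hoxc11) to 8.31 FPKM (Hoxc12). All 7 tested genes of cluster C were higher in astrocytes in both genotypes, although the Hoxc4 call ended without any of several single libraries, as with an adjusted p of 0.0906 in KO without KO astrocytes 1 and of 0.127 in WT without WT astrocytes 1.

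In cluster A, Hoxa7 led, with 47.4, 41.5, 42.5 and 46.5 FPKM in KO astrocytes and 48.4, 62.7 and 45.0 FPKM in WT astrocytes, against 0.290, 0.445 and 1.25 FPKM in KO microglia and 0.476, 3.75 and 0.822 FPKM in WT microglia. It varied little between astrocyte libraries, and 1 microglia library (WT microglia 2) stood above the other 5. Between cell types, it differed on the log2 scale by 4.87 ± 0.38 in KO and 4.56 ± 0.41 in WT (SE; limma adjusted p = 1.50e-06 and 5.53e-06). A part of its exons (20.4%) is shared with the antisense gene Hoxaas3, and whether the counting used strand is not stated. Hoxa5, needed for phrenic motor neurons and the respiratory system, was at 6.58, 13.9, 10.2 and 12.1 FPKM in KO astrocytes and 12.9, 7.43 and 12.8 FPKM in WT astrocytes, and Hoxa6 at 8.33, 12.6, 7.02 and 5.79 FPKM in KO astrocytes and 8.97, 9.26 and 13.7 FPKM in WT astrocytes. Microglia were at 0 to 0.417 FPKM for Hoxa5 and 0 to 0.817 FPKM for Hoxa6, well below every astrocyte library. Hoxa3, which patterns the neck region and thymus, was at 8.36, 4.95, 5.51 and 7.04 FPKM in KO astrocytes and 3.61, 8.78 and 22.0 FPKM in WT astrocytes, against 1.16, 0.690 and 0.438 FPKM in KO microglia and 0.596, 0.847 and 2.67 FPKM in WT microglia. WT astrocytes 3, a P9 library, was the highest for Hoxa3, and all astrocyte libraries were above all microglia libraries. Its log2 differences were 1.92 ± 0.48 in KO and 1.99 ± 0.53 in WT (limma adjusted p = 0.00592 and 0.00833), and its exons overlap with several other genes. Of the other genes, Hoxa2 and Hoxa9 lay at 5.43 and 9.002 FPKM on average in astrocytes, and Hoxa11 and Hoxa13 under 1 FPKM. Of the 8 genes tested in cluster A, 7 were higher in astrocytes in both genotypes, and Hoxa4 was not called (limma adjusted p = 0.128 in KO and 0.322 in WT).

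In cluster B, Hoxb6 was at 15.9, 47.4, 15.9 and 16.1 FPKM in KO astrocytes and 20.8, 30.4 and 36.8 FPKM in WT astrocytes, against 0.473, 0.0761 and 1.64 FPKM in KO microglia and 0.816, 0.200 and 0.896 FPKM in WT microglia. It was the highest gene of the cluster in 4 of the 7 astrocyte libraries, and the P9 libraries were its 2 highest. On the log2 scale the cell types differed by 3.51 ± 0.34 in KO and 3.85 ± 0.38 in WT (SE; limma adjusted p = 9.04e-06 and 9.48e-06). Hoxb8, which in mice also marks the lineage of a subset of microglia and whose loss gives excessive grooming, was at 21.1, 23.9, 16.9 and 16.7 FPKM in KO astrocytes and 16.5, 21.5 and 19.9 FPKM in WT astrocytes, against 0.0323, 0.134 and 0.539 FPKM in KO microglia and 0.591, 0.899 and 0.651 FPKM in WT microglia. Astrocytes were even, with a coefficient of variation of 14.8%, and microglia did not exceed 0.899 FPKM. Its log2 difference between cell types was 4.01 ± 0.22 in KO and 3.48 ± 0.23 in WT (SE; limma adjusted p = 9.48e-08 and 5.82e-07). Hoxb7 was at 1.20, 8.51, 13.2 and 5.35 FPKM in KO astrocytes and 5.48, 18.01 and 7.48 FPKM in WT astrocytes, with KO astrocytes 1 below the others, and at no more than 0.190 FPKM in microglia. The mean in astrocytes was 6.18 FPKM for Hoxb5, 4.07 FPKM for Hoxb2, a hindbrain gene, 2.71 FPKM for Hoxb9 and 0.418 FPKM for Hoxb1. Of the 7 genes tested in cluster B, 6 were higher in astrocytes in KO and 5 in WT. Hoxb4 was called in neither (limma adjusted p = 0.749 in KO and 0.153 in WT), and Hoxb9 passed in KO and missed in WT (limma adjusted p = 0.00158 and 0.208). The Hoxb2 call in WT ended without WT astrocytes 1 (limma adjusted p = 0.0728).

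In cluster D, Hoxd8 stood alone, with 44.1, 38.4, 32.1 and 23.7 FPKM in KO astrocytes and 41.4, 33.5 and 29.5 FPKM in WT astrocytes, against 1.52, 0.873 and 0.696 FPKM in KO microglia and 0.351, 1.52 and 0.607 FPKM in WT microglia. The groups of cell type lay far apart. The log2 difference between cell types was 4.12 ± 0.30 in KO and 4.34 ± 0.33 in WT (SE; limma adjusted p = 8.48e-07 and 1.31e-06). Hoxd9, a gene of the lower cord, was at 3.65, 1.76, 5.15 and 2.60 FPKM in KO astrocytes and 3.40, 3.84 and 2.29 FPKM in WT astrocytes, and at 0 to 0.341 FPKM in microglia. It was called in both genotypes, with log2 differences of 1.97 ± 0.27 in KO and 2.03 ± 0.30 in WT (limma adjusted p = 1.15e-04 and 1.92e-04). Hoxd3 was at 3.62, 0.942, 2.55 and 3.29 FPKM in KO astrocytes and 1.86, 0.514 and 6.16 FPKM in WT astrocytes, against 0.0685, 0.450 and 0.822 FPKM in KO microglia and 0.508, 0.0232 and 0.269 FPKM in WT microglia. Its cell types overlapped, and it was called in neither genotype (limma adjusted p = 0.0745 in KO and 0.0944 in WT), although leaving out WT astrocytes 2 brought both under the threshold (0.0316 and 0.0206). Of its exonic bases, 53.1% are shared with another gene model on the same strand. Hoxd1, the front gene of the cluster, was at 0.193 to 2.71 FPKM in astrocytes and 0 to 0.429 FPKM in microglia. Hoxd11 was called in neither genotype (limma adjusted p = 0.0891 in KO and 0.936 in WT). It was at 3.32, 0.0314 and 0.0347 FPKM in KO microglia, and without KO microglia 1 its log2 difference in KO was 1.91 (limma adjusted p = 0.00678). That microglia library also had the highest sum of Schwann cell markers among microglia, 43.4 FPKM, against 14.0 FPKM in the next. The part of Schwann cells in this Hoxd11 value was not tested.

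**Figure D2:**
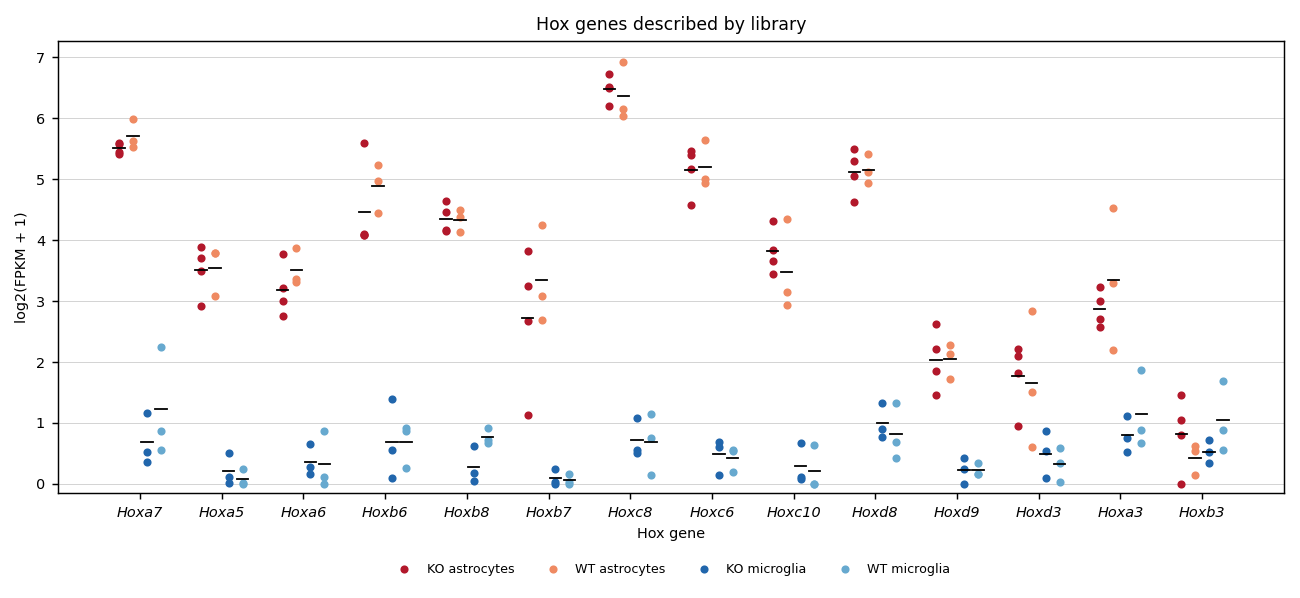
Level of 14 Hox genes as log2(FPKM + 1), with 1 point per library and a bar at the mean of the plotted values, for KO and WT astrocytes (red and orange) and KO and WT microglia (dark and light blue). The cell types are apart for all but Hoxd3 and Hoxb3, which overlap.

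Paralogs of 1 group differed in level within the same libraries. Hoxc8 was above Hoxd8, and Hoxd8 above Hoxb8, in all 7 astrocyte libraries. In group 7, Hoxa7 averaged 47.7 ± 7.08 FPKM and Hoxb7 8.46 ± 5.57 FPKM (SD, n = 7), without overlap. In group 6, Hoxc6 and Hoxb6 each lay above Hoxa6 in all 7 libraries, and Hoxc6 and Hoxb6 overlapped. In group 10, Hoxc10 averaged 12.5 ± 5.03 FPKM, Hoxa10 2.90 ± 1.52 FPKM and Hoxd10 0.850 ± 0.462 FPKM, and none of these ranges overlapped. In group 3, Hoxa3 was above Hoxb3 and Hoxd3 in all 7 libraries, and in group 5 Hoxa5 was above Hoxb5 and Hoxc5 in all 7. In groups 2 and 9 no paralog stood apart in range from the others, and in group 4 none did either.

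Among the 27 genes with an astrocyte mean of at least 1 FPKM, the coefficient of variation over the 7 astrocyte libraries had a median of 52.3% (14.8% to 147%), against 40.9% for all 13397 genes tested in astrocytes. Hoxb8 and Hoxa7 varied least and Hoxb4 most. Hoxb4 was at 1.91, 1.40, 0.947 and 0.239 FPKM in KO astrocytes and 0.938, 9.79 and 0.762 FPKM in WT astrocytes, and WT astrocytes 2 was above the other 6 libraries together. Hoxa4 fell into high and low libraries within both genotypes, at 3.87, 4.86, 0.642 and 0.188 FPKM in KO astrocytes and 4.51, 2.31 and 0.254 FPKM in WT astrocytes. Hoxc12, a gene of the tail end, was at 9.26, 6.98, 4.797 and 8.66 FPKM in KO astrocytes and 7.25, 21.3 and 0 FPKM in WT astrocytes. It was listed at 0 in the P9 library WT astrocytes 3 and was highest in WT astrocytes 2. Hoxa11, Hoxa13 and Hoxc13 were also listed at 0 in WT astrocytes 3. With Hoxc12 included, groups 11 to 13 summed to 0.185 FPKM in that library, against 7.99 to 23.7 FPKM in the other astrocyte libraries. An exact 0 in this table need not mean absence, since Slc1a2, an abundant astrocyte transporter, was listed at 0 in 2 of the 7 astrocyte libraries. Why the tail-end genes were low in WT astrocytes 3 was not tested.

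In microglia, Hox values were low throughout, and Hoxb13 was listed at 0 in all 6 libraries. From 9 to 13 of the 38 genes were at 0 in a microglia library, against 1 to 7 in an astrocyte library. Hoxa7, Hoxa3 and Hoxd8 had the highest means, at 1.17 ± 1.31, 1.07 ± 0.822 and 0.928 ± 0.489 FPKM (SD, n = 6), and their values by library are given above. Hoxb3, Hoxd13 and Hoxd12 were the genes with a higher mean in microglia than in astrocytes. Hoxb3 was at 1.74, 1.06, 0.738 and 0 FPKM in KO astrocytes and 0.104, 0.451 and 0.538 FPKM in WT astrocytes, against 0.639, 0.267 and 0.440 FPKM in KO microglia and 0.839, 0.475 and 2.23 FPKM in WT microglia. These values overlapped in part (exact two-sided permutation p = 0.661), and 52.9% of the exonic bases of Hoxb3 are shared with the antisense gene Hoxb3os. Hoxd12 reached 0.150 FPKM in 1 microglia library and Hoxd13 0.139 FPKM in another, and both were at or near 0 elsewhere (exact two-sided permutation p = 0.385 and 0.923).

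The microglia level was 0.771% of the astrocyte level for Hoxc8, 1.07% for Hoxc6, 1.09% for Hoxa5, 2.45% for Hoxa7 and 2.68% for Hoxd8. The 8 astrocyte markers lay in the same range, from 0.415% for Aldh1l1 to 5.71% for Slc1a3. For Hoxc9 the value was 12.8%, for Hoxa3 12.4% and for Hoxb4 33.5%, above all 8 markers. Also above all 8 were Hoxd11 (33.0%), Hoxb1 (28.4%), Hoxa4 (15.2%), Hoxb9 (15.1%), Hoxa13 (13.4%) and Hoxd3 (13.2%). Hoxd1 (10.8%), Hoxa11 (8.76%), Hoxc5 (6.86%) and Hoxc4 (6.02%) were above them too, and Hoxb3, Hoxd12 and Hoxd13 had the higher mean in microglia. Hoxc9, which sets the thoracic column of motor neurons, was at 2.78 to 6.28 FPKM in astrocytes and 0.248 to 1.05 FPKM in microglia. How far astrocyte RNA enters the microglia values was not tested.

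No Hox gene passed the threshold between KO and WT astrocytes. Of 27 tested, 0 had an adjusted p under 0.05 (limma, age as a covariate), where 0.0224% of all genes tested were called, and 2 had an unadjusted p under 0.05, against 4.19% of all genes tested. The median log2 difference of the 27 was -0.06, against 0.00 over all genes. KO and WT astrocytes did not overlap for 2 of the 27, against 4.68% of all genes tested. These 2 were Hoxd11 and Hoxb9, the same that had the unadjusted p under 0.05, and they were chosen for description after their values were seen.

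Hoxd11, a gene of the caudal cord and the forearm, was at 5.62, 2.82, 3.06 and 1.09 FPKM in KO astrocytes and 0.373, 0.0249 and 0.0231 FPKM in WT astrocytes. All 4 KO libraries were above all 3 WT libraries, and the log2 difference was 1.75 ± 0.51 (SE; limma adjusted p = 0.921). Hoxb9 was at 2.71, 4.63, 1.99 and 6.02 FPKM in KO astrocytes and 1.58, 1.12 and 0.948 FPKM in WT astrocytes, with a log2 difference of 1.06 ± 0.43 (SE; limma adjusted p = 0.921). Among the tail-end groups, group 11 takes in the Hoxd11 values, whereas Hoxb9 belongs to group 9. Group 11 summed to 8.81, 5.75, 5.38 and 1.21 FPKM in KO astrocytes and 0.691, 0.993 and 0.185 FPKM in WT astrocytes, without overlap. No share without overlap was computed for such sums. Group 13 summed to 1.08, 1.35, 5.62 and 2.27 FPKM in KO astrocytes and 0.0524, 1.44 and 0 FPKM in WT astrocytes, with overlap, and it is made up by Hoxc13 and Hoxa13, since Hoxb13 did not exceed 0.485 FPKM and Hoxd13 0.0528 FPKM. Hoxc11 was at 3.17, 1.12, 1.98 and 0.0269 FPKM in KO astrocytes and 0, 0 and 0.162 FPKM in WT astrocytes.

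KO astrocytes 1, the library with the highest Hoxd11 and Hoxc11, also had the highest neuron markers. Their sum over 8 genes was 308, 48.9, 65.7 and 135 FPKM in KO astrocytes and 84.8, 93.2 and 28.7 FPKM in WT astrocytes, and Stmn2 and Tubb3 were at 47.9 and 32.6 FPKM in KO astrocytes 1. The motor neuron markers measured here (2 genes) summed to 12.9, 0.0638, 0.155 and 0.920 FPKM in KO astrocytes and 0.168, 0 and 0.0235 FPKM in WT astrocytes. Schwann cell markers (2 genes) summed to 102, 0.260, 137 and 94.3 FPKM in KO astrocytes and 261, 0.0842 and 114 FPKM in WT astrocytes, with high and low libraries in both genotypes. Without KO astrocytes 1, the log2 difference of Hoxd11 was 1.496 (limma adjusted p = 0.983). The part of neurons in the Hoxd11 values was not tested.

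**Figure D3:**
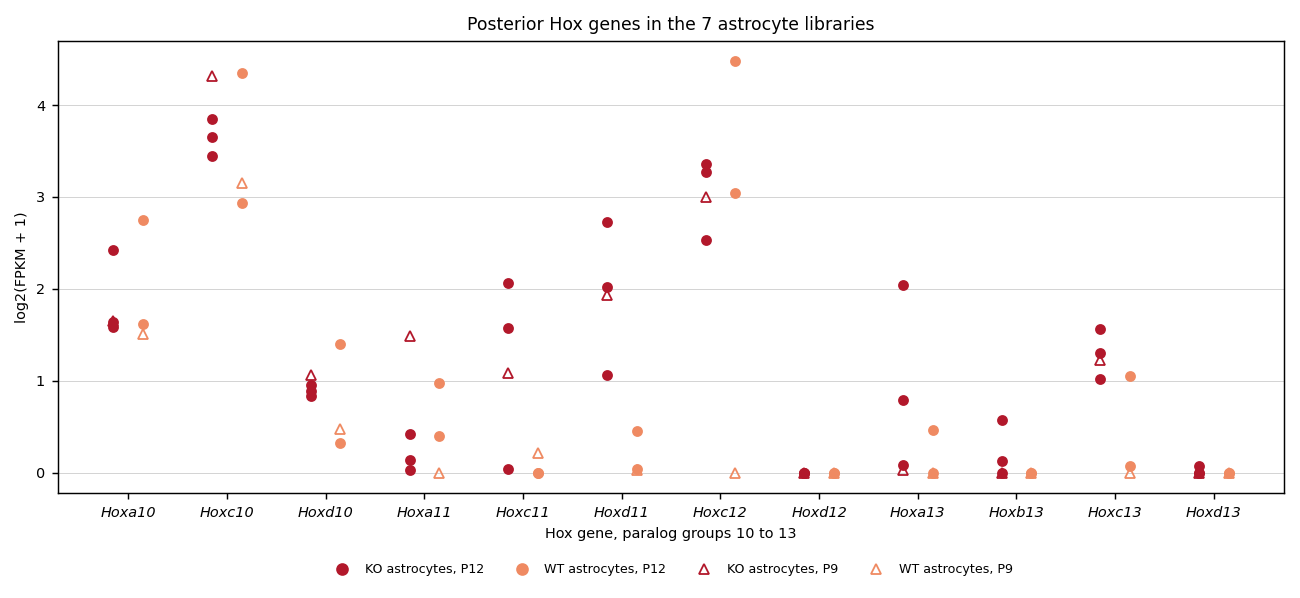
Level of the 12 Hox genes of paralog groups 10 to 13 as log2(FPKM + 1) in the 7 astrocyte libraries, KO left and WT right for each gene, with P12 libraries as filled circles and P9 libraries as open triangles. Hoxd11 is the gene whose KO libraries all lie above its WT libraries, and Hoxc12 is at 0 in the WT P9 library.

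By cluster, the 8 tested genes of cluster A all had a log2 difference below 0 in KO minus WT astrocytes, from -0.84 (Hoxa9) to -0.01 (Hoxa5), and each overlapped between genotypes. Of all genes tested, 49.8% were below 0. With upper quartile scaling, with P12 libraries only and with the replicate number as a block, 7 of the 8 were below 0. With the filter at 0.1 FPKM or none it was 8 of 11. It was 6 of 8 when WT astrocytes 1 was left out, 6 of 9 when WT astrocytes 2 was, and 7 of 8 when any other single astrocyte library was. Hoxa9, a gene of the lower cord and of blood stem cells, was at 9.63, 10.1, 3.42 and 2.70 FPKM in KO astrocytes and 6.04, 17.3 and 13.8 FPKM in WT astrocytes. In cluster B 4 of 7, in cluster C 4 of 7 and in cluster D 2 of 5 were above 0. In microglia Hoxa3 and Hoxa7 alone passed the filter, and 0 of these 2 were called, where 0.0818% of all genes tested were, with 0 at an unadjusted p under 0.05 by limma, against 7.96% of all genes tested. Their log2 differences were -0.35 ± 0.44 for Hoxa3 and -0.54 ± 0.55 for Hoxa7 (SE; limma adjusted p = 0.818 and 0.774). The genotype effect was not shown to differ between cell types for any Hox gene. Of 26 tested for this interaction, 0 were called, where 0.141% of all genes tested were. At an unadjusted p under 0.05, where 6.62% of all genes tested lay, 1 was found, Hoxb9 (log2 difference 1.12 ± 0.49, SE; limma adjusted p = 0.751). The authors' deposited tables of KO against WT list 10 genes for astrocytes and 483 for microglia, with 0 Hox genes in either.

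Age divided the astrocyte libraries into 5 of P12 and 2 of P9, with 1 P9 library in each genotype. The Hox sum was 317 to 398 FPKM at P12, against 434 FPKM in KO and 432 FPKM in WT at P9. As a share of the FPKM of all genes, this was 0.0104% to 0.0156% at P12, against 0.0258% in KO and 0.0213% in WT at P9, and the FPKM of all genes summed to less in both P9 libraries than in any P12 library. Of 27 genes tested, 0 were called between the ages, where 0.097% of all genes tested were, and 3 had an unadjusted p under 0.05, against 8.61% of all genes tested. The ages did not overlap for 5 of the 27, against 14.7% of all genes tested. These were Hoxa6, Hoxb6, Hoxc6, Hoxc8 and Hoxd9, described here after their values were seen.

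Hoxb6 was at 15.9, 15.9 and 16.1 FPKM in KO and 20.8 and 30.4 FPKM in WT at P12, against 47.4 FPKM in KO and 36.8 FPKM in WT at P9. The P9 libraries were the 2 highest, and the difference, coded as P9 minus P12, was 1.05 ± 0.29 on the log2 scale (SE; limma adjusted p = 0.359). Hoxc8 was at 88.8, 90.1 and 72.3 FPKM in KO and 64.3 and 70.3 FPKM in WT at P12, against 104 FPKM in KO and 120.4 FPKM in WT at P9, with a difference of 0.56 ± 0.19 (limma adjusted p = 0.482). Hoxa6 had a difference of 0.66 ± 0.26 (limma adjusted p = 0.560). Group 6 as a whole, with Hoxa6, Hoxb6 and Hoxc6, summed to 47.0, 57.8 and 62.8 FPKM in KO and 59.3 and 70.7 FPKM in WT at P12, against 103 FPKM in KO and 99.6 FPKM in WT at P9. Hoxd9 went the other way, with 2.60 to 5.15 FPKM at P12 and 1.76 and 2.29 FPKM at P9. The P9 libraries also had the lowest microglia markers, with sums of 43.2 to 60 FPKM at P12 and 8.46 and 17.3 FPKM at P9, and the lowest neuron markers, with 65.7 to 308 FPKM at P12 and 48.9 and 28.7 FPKM at P9. Endothelial and mural markers (5 genes) were lowest there too, at 40.1 to 74.5 FPKM at P12 and 18.6 and 28.5 FPKM at P9, and of their 4 tested genes 1, Rgs5, was lower at P9 (limma adjusted p = 0.0245). Their part in the Hox values was not tested, and with 2 libraries at P9 the precision is low.

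Some noncoding genes of the Hox clusters were higher in astrocytes as well. The annotation (GENCODE M21) places 38 of them within the clusters, of which 12 were at 0 in all libraries and 15 were tested. In KO 9 of the 15 were higher in astrocytes, where 25.1% of all genes tested were, and in WT also 9, where 24.5% were, and none was lower. Of the 15, 13 had a microglia mean under 1 FPKM and so entered through their astrocyte level, and 4 of the 9 higher in each genotype are gene models at 1 locus, Hotairm1 and those beside it named below, so the count describes the tested models only. Hotairm1, an antisense RNA of cluster A (chr6:52156902-52162119 on GRCm38) named from human myeloid cells, was at 97.6, 173, 179 and 145 FPKM in KO astrocytes and 194, 228 and 238 FPKM in WT astrocytes, against 1.15, 1.72 and 0.542 FPKM in KO microglia and 0, 0.422 and 0 FPKM in WT microglia. It exceeded every Hox coding gene in 7 of the 7 astrocyte libraries and was near 0 in microglia. Between cell types, it differed on the log2 scale by 6.06 ± 0.27 in KO and 7.52 ± 0.29 in WT (SE; limma adjusted p = 2.59e-08 and 1.31e-08). Gm27868 and Gm27867, which lie within its bounds, and Gm27477, which begins just past its end, were also higher in astrocytes. How reads were divided between overlapping gene models is not given in the sources used here.

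Hoxb3os and Hoxd3os1, antisense to Hoxb3 and Hoxd3, were at 3.90 to 17.8 and 2.65 to 10.7 FPKM in astrocytes, and at 0.0689 to 1.38 and 0 to 0.245 FPKM in microglia. Each lay above its coding partner in mean, as Hoxb3 averaged 0.662 ± 0.597 FPKM and Hoxd3 2.71 ± 1.91 FPKM in astrocytes (SD, n = 7). Between genotypes, 0 of the 18 noncoding genes tested in astrocytes were called, and 2 had an unadjusted p under 0.05 by limma, against 4.19% of all genes tested. Hotairm1 was lower in all 4 KO than in all 3 WT astrocyte libraries, with a log2 difference of -0.57 ± 0.22 (SE; limma adjusted p = 0.921). Hoxd3os1 was at 4.51, 6.21, 10.7 and 10.1 FPKM in KO astrocytes and 2.89, 4.03 and 2.65 FPKM in WT astrocytes, with a log2 difference of 1.01 ± 0.36 (SE; limma adjusted p = 0.921). For genotype in microglia, 0 of 2 were called and 1 had such a p, Gm27868, with a log2 difference of 4.30 ± 1.04 (SE; limma adjusted p = 0.509), against 7.96% of all genes tested. For the interaction, where 6.62% of all genes tested had such a p, 0 of 15 were called and 3 had it. These were Hotairm1 (-1.46 ± 0.38, SE; limma adjusted p = 0.426), Gm27868 (-4.66 ± 1.12, SE; limma adjusted p = 0.390) and Hoxd3os1 (1.07 ± 0.43, SE; limma adjusted p = 0.738), with Hotairm1 and Gm27868 at 1 locus. For age, 0 of 18 were called and 1 had such a p, Gm53, against 8.61%. Of the 6 microRNA genes of the clusters, 4 were at 0 in all libraries, Mir196b reached 30.4 FPKM in KO astrocytes 1, Mir196a-1 reached 32.1 FPKM in KO astrocytes 3, and both were at or near 0 in the other libraries.

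Hox proteins bind DNA together with TALE homeodomain proteins of the Pbx, Meis and Pknox families, and these genes split between the cell types. Meis1, Meis2 and Pknox2 were among those higher in astrocytes in both genotypes. Pbx2, Meis3 and Pknox1 were lower in both, and Pbx3 and Pbx4 were called in neither. Of all genes tested, 25.1% were higher and 31.9% lower in KO, and 24.5% and 29.1% in WT. The list's median log2 difference was -0.02 in KO and 0.17 in WT. Meis2 was at 41.7, 55.0, 30.3 and 41.6 FPKM in KO astrocytes and 25.8, 43.8 and 45.1 FPKM in WT astrocytes, against 0.335, 1.44 and 0.765 FPKM in KO microglia and 0.865, 2.55 and 0.886 FPKM in WT microglia. On the log2 scale the cell types differed by 4.44 ± 0.32 in KO and 3.88 ± 0.35 in WT (SE; limma adjusted p = 7.96e-07 and 5.06e-06). Meis3 went the other way, with 7.17, 2.62, 3.60 and 5.15 FPKM in KO astrocytes and 1.75, 5.91 and 9.74 FPKM in WT astrocytes, against 37.0, 27.8 and 26.0 FPKM in KO microglia and 35.5, 24.7 and 52.7 FPKM in WT microglia. Its log2 difference between cell types was -2.58 ± 0.47 in KO and -2.72 ± 0.52 in WT (SE; limma adjusted p = 8.85e-04 and 0.00115). Pknox2 differed by 2.62 ± 0.56 in KO and 2.95 ± 0.61 in WT, Pbx2 by -1.28 ± 0.49 and -1.45 ± 0.53, and Pknox1 by -1.56 ± 0.33 and -1.09 ± 0.35 (log2, SE). In scalings added after the data were seen, the Pbx2 call ended with quantile normalisation in KO and in WT (limma adjusted p = 0.0634 and 0.0519) and the Pknox1 call in WT (0.0746). With upper quartile scaling the Pbx2 call ended in KO (adjusted p = 0.0611), and no called gene of these lists changed its sign.

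Polycomb complexes keep Hox genes silent and trithorax proteins keep them active. Of 9 genes of Polycomb repressive complex 2, none was higher in astrocytes. In KO 4 were lower (Suz12, Jarid2, Mtf2 and Phf19), where 31.9% of all genes tested were, and in WT 2 (Mtf2 and Ezh1), where 29.1% were, so that these counts are near the background. The catalytic subunit Ezh2 was not called, at 8.94 to 33.4 FPKM in astrocytes and 14.8 to 27.8 FPKM in microglia. Jarid2 was listed at 0 in KO astrocytes 3. Of 10 tested genes of Polycomb repressive complex 1, Phc1 was higher in both genotypes (log2 difference 1.63 ± 0.40 in KO and 2.19 ± 0.44 in WT, SE) and Cbx6 passed in KO (2.89 ± 0.72 in KO and 2.00 ± 0.78 in WT, with WT missing the threshold at an adjusted p of 0.0505, and the interaction was not called). Phc3 and Cbx7 were lower in both genotypes, and Ring1 and Rnf2 in KO. Of 9 trithorax genes and H3K27 demethylases, the Kmt2a partner Men1 was higher in both, Kmt2a and the demethylase Kdm6a were lower in both, and Kmt2b and Rbbp5 were lower in KO. Complex 1 thus had 2 higher and 4 lower in KO, and 1 and 2 in WT. The trithorax list had 1 higher and 4 lower in KO, and 1 and 2 in WT. Among all genes tested, 25.1% were higher and 31.9% lower in KO, and 24.5% and 29.1% in WT. No shift of these lists is read from the counts. Kmt2a itself was at 12.6, 18.8, 13.5 and 17.3 FPKM in KO astrocytes and 9.56, 15.4 and 16.0 FPKM in WT astrocytes, and at 19.9 to 30.1 FPKM in microglia, without overlap. The list medians were -0.95 in KO and -0.65 in WT for complex 2, -0.42 and -0.74 for complex 1 and -0.81 and -0.16 for the trithorax list, against -0.24 and -0.21 over all genes. With quantile normalisation, Phf19, Rnf2, Cbx7 and Rbbp5 no longer passed in KO (limma adjusted p = 0.292, 0.131, 0.110 and 0.0929), and Cbx6 passed in WT (adjusted p = 0.0345), and Kdm6b passed in KO as higher in astrocytes (adjusted p = 0.0336). With upper quartile scaling, the Rnf2 call in KO ended (adjusted p = 0.0967), and Cbx6 in WT (adjusted p = 0.0446) and Kdm6b in KO (adjusted p = 0.0410) passed.

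**Figure D4:**
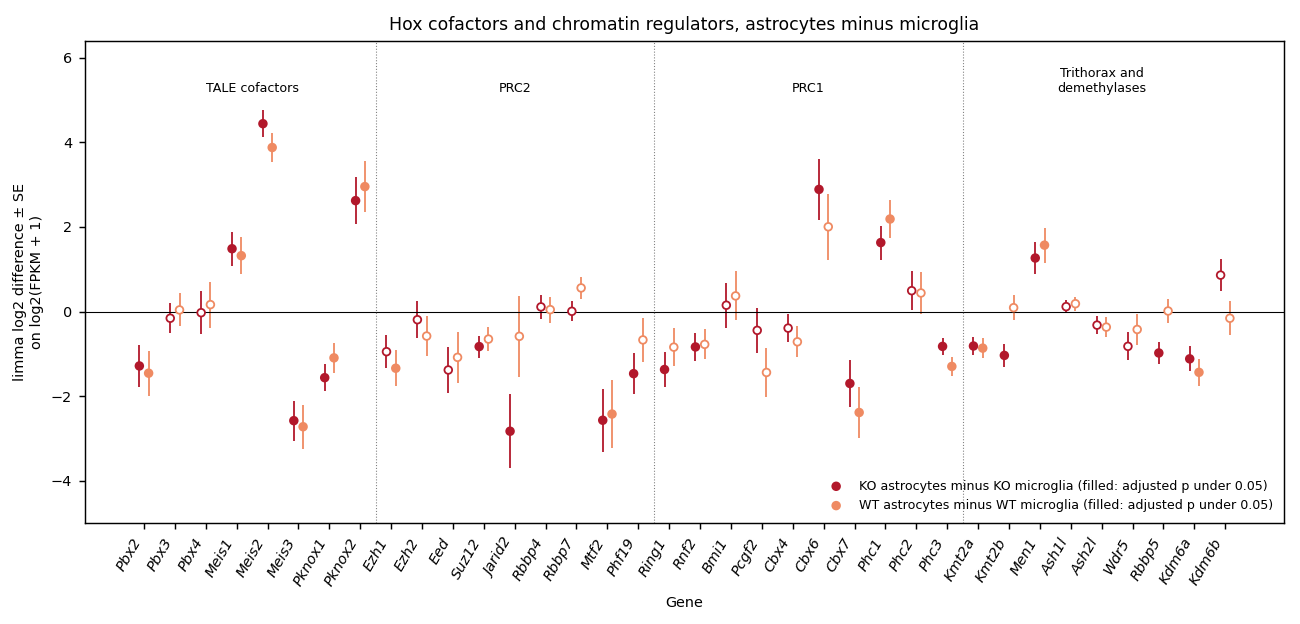
Log2 difference between astrocytes and microglia (limma, ± SE, on log2(FPKM + 1)) for Hox cofactors and chromatin regulators, KO left and WT right for each gene, filled where the adjusted p is under 0.05. Meis2 lies highest and Meis3 among the lowest, and most chromatin regulators lie below 0.

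Retinoic acid and Gdf11 set the Hox code in the embryo, and of 16 such upstream genes 7 were tested. Aldh1a1, an enzyme that makes retinoic acid, was at 125, 46.0, 163 and 104 FPKM in KO astrocytes and 179, 142 and 52.4 FPKM in WT astrocytes, and at 0.0450 to 1.07 FPKM in microglia. The log2 difference between cell types was 6.41 ± 0.29 in KO and 6.78 ± 0.31 in WT (SE; limma adjusted p = 2.53e-08 and 3.83e-08). Gdf11 and the retinoic acid receptors Rara and Rarb were higher in astrocytes in both genotypes as well, and the receptor partner Rxrb was lower in both (log2 difference -2.32 ± 0.43 in KO and -1.96 ± 0.47 in WT, SE). In each genotype 4 of the 7 were higher, where 25.1% of all genes tested were in KO and 24.5% in WT. In each 1 was lower, where 31.9% and 29.1% were. Over microglia libraries alone, 3 of the 16 passed the filter. Some of the 7 thus entered the fit through their astrocyte level, and the counts describe the tested genes only. Gdf11 was at 4.56 to 8.04 FPKM in astrocytes and 0.534 to 1.82 FPKM in microglia. Cdx4 and Cyp26a1 were listed at 0 in all 13 libraries, and Cdx2 and Cyp26c1 in all 7 astrocyte libraries. The 10 regional factors of forebrain and midbrain, regions that lack Hox expression, were low. Their sum was 0.654 to 2.80 FPKM in astrocytes and 2.33 to 7.28 FPKM in microglia, mostly from Otx1 and En1. Otx1, the 1 gene tested, was not called (limma adjusted p = 0.488 in KO and 0.0547 in WT).

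Genotype and age moved none of these lists at the threshold. Over the 6 lists of cofactors, Polycomb, trithorax, upstream and regional genes, 0 of 45 genes tested were called by limma for genotype in astrocytes, and 1 (Kdm6b) had an unadjusted p under 0.05, against 4.19% of all genes tested. For genotype in microglia, 0 of 41 were called and 2 had such a p (Phc1 and Kdm6a), against 7.96%. For the interaction, 0 of 45 were called and 2 had such a p (Kmt2b and Rbbp5), against 6.62%, and for age 0 of 45 and 2 (Pbx4 and Aldh1a1), against 8.61%. Each of these shares is below that of all genes.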

How the data were processed

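RNA was measured in 13 libraries of sorted spinal cord cells, whose cDNA was amplified with a NuGEN kit, per the labels' protocols. The authors deposited FPKM per gene and library, and how these were scaled between libraries is not stated. The deposited comparison tables hold the mean signal of normalized counts per genotype, log2 fold changes coded as WT over KO, scores (standard error and Wald statistic) and p-values, and were used here only to look for Hox genes. The submitters' processing notes name TopHat2 2.0.11, Bowtie2 2.2.3, HTSeq 0.6.1p1, DESeq2, Cuffnorm and GRCm38, with no roles.

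Names came from GENCODE M21, which held 37605 of the 39171 IDs (96.0%). Differences were fitted with limma 3.58.1 in R 4.3.3 (trend, two-sided) on log2(FPKM + 1), which understates the change of low genes, for genes with a mean of at least 1 FPKM over the fitted libraries, with Benjamini-Hochberg adjustment over all genes tested. Comparisons of cell types and the interaction used all 13 libraries with age as a covariate. Genotype in astrocytes was fitted over 7 libraries with age, genotype in microglia over 6 libraries, and age over 7 libraries with genotype. Exact permutation tests used scipy 1.17.1. The fit was tested on simulated data.

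Genes described by library were the 3 with the highest astrocyte mean in each cluster, the 3 with the highest microglia mean, those with a higher mean in microglia, and any called for genotype, interaction or age. Genes described outside this rule were chosen after their values were seen. From the other lists, the 3 called genes with the largest WT difference in each direction were described, with further genes chosen after their values were seen. The members, the gene lists and the tests were chosen with earlier results of these data known. Alternatives were another pseudocount (0.1), filters, quantile and upper quartile scaling, the replicate number as a block, no age covariate, P12 libraries only, and leaving out each library. Some items of these lists are counted in the totals and are otherwise not reported here.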

Additional observations from a re-analysis of the deposited data

Results flagged for a closer look

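In KO astrocytes, 4 Hox genes had 1 library far from the other 3, by the gap to the nearest library against the whole range (Dixon's criterion), out of 56 tests of this kind. Chance flags about 1 in 20 such groups. Hoxb6 was at 47.4 FPKM in KO astrocytes 2, the P9 library, against 16.1 FPKM in the nearest library, and the WT library of the same age was at 36.8 FPKM. Hoxb1, a hindbrain gene, was at 2.18 FPKM in KO astrocytes 2, against 0.124 FPKM in the nearest library. Hoxa10 was at 4.38 FPKM in KO astrocytes 3, against 2.14 FPKM in the nearest library. Hoxd13 was at 0.0528 FPKM in KO astrocytes 3 and at 0 in the other 3 KO astrocyte libraries, where any value above 0 meets the criterion by construction, so it should not be counted against the chance rate.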

How the results depend on the processing

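The counts of Hox genes higher in astrocytes stayed within 1.5 times under the alternatives run. They ranged from 22 to 27 in KO, against 22 as reported, and from 21 to 24 in WT, against 21 as reported. Leaving out single libraries gave 21 to 24 in KO and 19 to 22 in WT. The counts for genotype, interaction and age were 0 under these alternatives. Quantile normalisation put the median log2 difference of all genes at 0.08 in KO, against -0.24 as reported, and at 0.06 in WT, against -0.21, with 25 Hox genes called in KO and 24 in WT. Over all Hox genes and alternatives between cell types, calls were lost 9 times, 8 times for Hoxc4 (as without the filter in KO, with a limma adjusted p of 0.0577) and 1 time for Hoxb2, and gained 27 times. For 36 values of genes described by library or compared by genotype or age, which do not include Hoxc4 or Hoxb2, 718 alternative values were computed, of which 705 kept their direction and side of the threshold, 12 newly passed it and 1 changed sign. That was Hoxd11 in WT astrocytes minus WT microglia, at -0.10 without WT astrocytes replicate 1, against 0.08 with it. Leaving out single libraries gave -0.10 to 0.20, and the difference passed the threshold in neither direction.

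Replicate numbers gave no clear pairing of the libraries. Over 12 same-numbered pairs, deviations from the group means correlated at -0.08 to 0.03, and 4 correlated best with their own number. These were KO with WT microglia for numbers 1, 2 and 3, at 0.0277, 0.0124 and 0.0227, and KO astrocytes 1 with KO microglia 1. A weak pairing among microglia is thus not excluded. With the replicate number as a block, 22 Hox genes were called in KO and 21 in WT between cell types, and 0 for genotype, interaction and age. Depth is known only between libraries, so values near 0 carry no counting interval, and astrocyte libraries were the shallower ones. The segments of the cord and the share of other cells in each sort limit what the levels describe.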
